A study of Mus musculus with 12 samples.

Results

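The genes described here encode the subunits of the receptors for GABA and glutamate, read in the RNA of mouse dorsal root ganglia (DRG). They were taken from the authors' table of read counts by name alone. Names beginning with Gabr or Gabbr (GABA receptors) or with Gria, Grin, Grik or Grm and a digit (glutamate receptors) were kept, and antisense names ending in os were left out. This gave 45 of the 44345 gene names in the table. The study asks what a stay in an enriched environment and a peripheral nerve injury, alone and together, change in sensory neurons. C57BL/6 mice 5 to 8 weeks old were kept for 10 days in standard housing (SH) or environmental enrichment (EE), which is a larger cage with more animals, running wheels and other objects. They then had a sciatic nerve axotomy (SNA), a complete transection of the nerve, or a sham operation that exposed the nerve without cutting it. The sciatic DRG (L4 to L6) of both sides were taken 24 h later, which gave 4 groups of 3 samples, SH Sham and SH SNA in standard housing, EE Sham and EE + SNA in enrichment. No gene was altered in any group. The study's methods give isoflurane anesthesia and the analgesics buprenorphine and carprofen for all surgeries, sham operations included. Each sample pooled the ganglia of 2 mice, and P-values therefore measure the spread between pools.

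GABA-A receptors are chloride channels built mostly from alpha, beta and gamma subunits, and GABA-B receptors are G protein-coupled pairs of Gabbr1 and Gabbr2. AMPA, kainate and NMDA receptors are cation channels gated by glutamate, each assembled from subunits of its own family, and the Grm genes encode the metabotropic, G protein-coupled glutamate receptors. In sensory neurons these receptors sit mainly on the cell body and on the central terminals in the spinal cord, where GABA lowers and presynaptic glutamate receptors modulate transmitter release.

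The promoter windows of 3 genes are printed first, because their genes moved after SNA or in the opposite direction to the others, and the values follow further on. Gria2 encodes the AMPA subunit that keeps calcium out of the channel, Grin1 is the subunit that every NMDA receptor contains, and Gabra5 is a GABA-A alpha subunit known for receptors outside the synapse. Each window runs from 250 bases before to 50 bases after the transcript start, 5′ to 3′, as RefSeq gives it on GRCm38.p6. Capitals mark matches to AGCACCNNGGACAGC, the core of the RE1 element that the neuronal repressor REST binds, to the GC box GGGCGG of SP1, and to the E-box CACGTG, all searched on both strands.
Gria2 (chr3:80802786-80803085, minus strand): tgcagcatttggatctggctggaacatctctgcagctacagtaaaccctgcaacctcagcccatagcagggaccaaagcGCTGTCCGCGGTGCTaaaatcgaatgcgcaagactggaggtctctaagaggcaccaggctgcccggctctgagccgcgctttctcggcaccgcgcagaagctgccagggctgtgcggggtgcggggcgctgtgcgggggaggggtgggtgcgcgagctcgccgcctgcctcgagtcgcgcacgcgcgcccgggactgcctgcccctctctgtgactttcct
Grin1 (chr2:25319138-25319437, minus strand): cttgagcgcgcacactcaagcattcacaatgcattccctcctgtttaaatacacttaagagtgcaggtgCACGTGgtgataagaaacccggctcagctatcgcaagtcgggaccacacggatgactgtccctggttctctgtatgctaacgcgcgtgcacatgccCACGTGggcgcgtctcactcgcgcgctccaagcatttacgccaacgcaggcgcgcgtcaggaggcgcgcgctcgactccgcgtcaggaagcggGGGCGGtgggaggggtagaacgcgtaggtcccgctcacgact
Gabra5 (chr7:57510010-57510309, minus strand): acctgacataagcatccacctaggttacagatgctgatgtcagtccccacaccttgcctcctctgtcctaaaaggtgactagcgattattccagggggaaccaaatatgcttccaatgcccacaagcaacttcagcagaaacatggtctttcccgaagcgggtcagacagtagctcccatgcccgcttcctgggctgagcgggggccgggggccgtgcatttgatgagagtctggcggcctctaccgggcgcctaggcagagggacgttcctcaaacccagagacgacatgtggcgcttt
The Gria2 window held an RE1 core, on the strand opposite to the one printed, from 171 to 157 bases before the start, and this motif was searched for after the Gria2 sequence had been seen. It was in 10 of the 32851 promoter windows of all genes (0.0304%) and in 1 of the 39 windows found for 32 of the 45 receptor genes. The Grin1 window held 2 E-boxes, where 7.15% of all windows hold at least 1, and was the only window of a receptor gene with one. The GC box stood in 19 of the 39 windows (48.7%), against 35.7% of all windows. The 39 windows were richer in G and C, with a median of 59.7% against 52.7%, and the part of this in the matches was not tested. The cyclic AMP response element TGACGTCA and the AP-1 site TGAGTCA, which 1.79% and 5.2% of all windows hold, were in 0 of the 39. No match to any of the 5 motifs stood in the Gabra5 window, and the matches are descriptions of the sequence only.

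The samples held 11343579 to 22871460 reads on genes, the most in EE + SNA replicate 2, and the receptor genes took 0.135% to 0.175% of them. Atf3, a marker of axotomized sensory neurons, had a log2 fold change of 2.12 in SH and 1.71 in EE. All 6 injury response genes on a list were higher after SNA in both housings. The list was chosen with earlier results of these data known and is no independent check. The 15 sensory neuron genes summed to between 4303 and 4819 FPKM (fragments per length of gene and size of library) in every sample, and the 8 spinal cord genes to between 2.33 and 3.43. Skeletal muscle genes reached 493 FPKM in SH SNA replicate 2, against 1.79 to 83.3 in the other 11 samples, and neutrophil genes 1199 FPKM in EE + SNA replicate 3, against 118 to 527. The authors took EE Sham from an earlier dataset. A difference between the datasets cannot be told apart from enrichment in EE Sham against SH Sham, nor from SNA in EE + SNA against EE Sham, and it enters the interaction and the pooled fits.

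Levels can be compared between genes on the FPKM scale, which is divided by gene length. Of the 45 genes, 31 had enough reads to be tested, and 28 of these passed the count filter in all 12 samples. The others were Gabra4 and Grm5, which passed it mainly through the Sham samples, and Gabrr2, which passed it through the SNA samples, so that their differences are partly fixed by the filter and are descriptions only. The tested genes were 12 of 19 GABA-A, both GABA-B, all 4 AMPA, all 5 kainate, 4 of 7 NMDA and 4 of 8 metabotropic genes. The other 14 included Gabra6, Gabrd, Gabre, Gabrp, Gabrq, Gabrr1, Gabrr3, Grin2a, Grin2b, Grin2c, Grm2, Grm3 and Grm6. None of the 14 exceeded 18 reads in a sample, and Gabra6, an alpha subunit best known from cerebellar granule cells, had 0 reads in all 12, which allows up to 3 reads per sample. Of the GluN2 subunits, which give NMDA receptors their kinetics, Grin2a had 0 to 2 reads and Grin2b 0 to 2 reads per sample, whereas Grin2d had 0.540 to 0.892 FPKM.

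**Figure D1:**
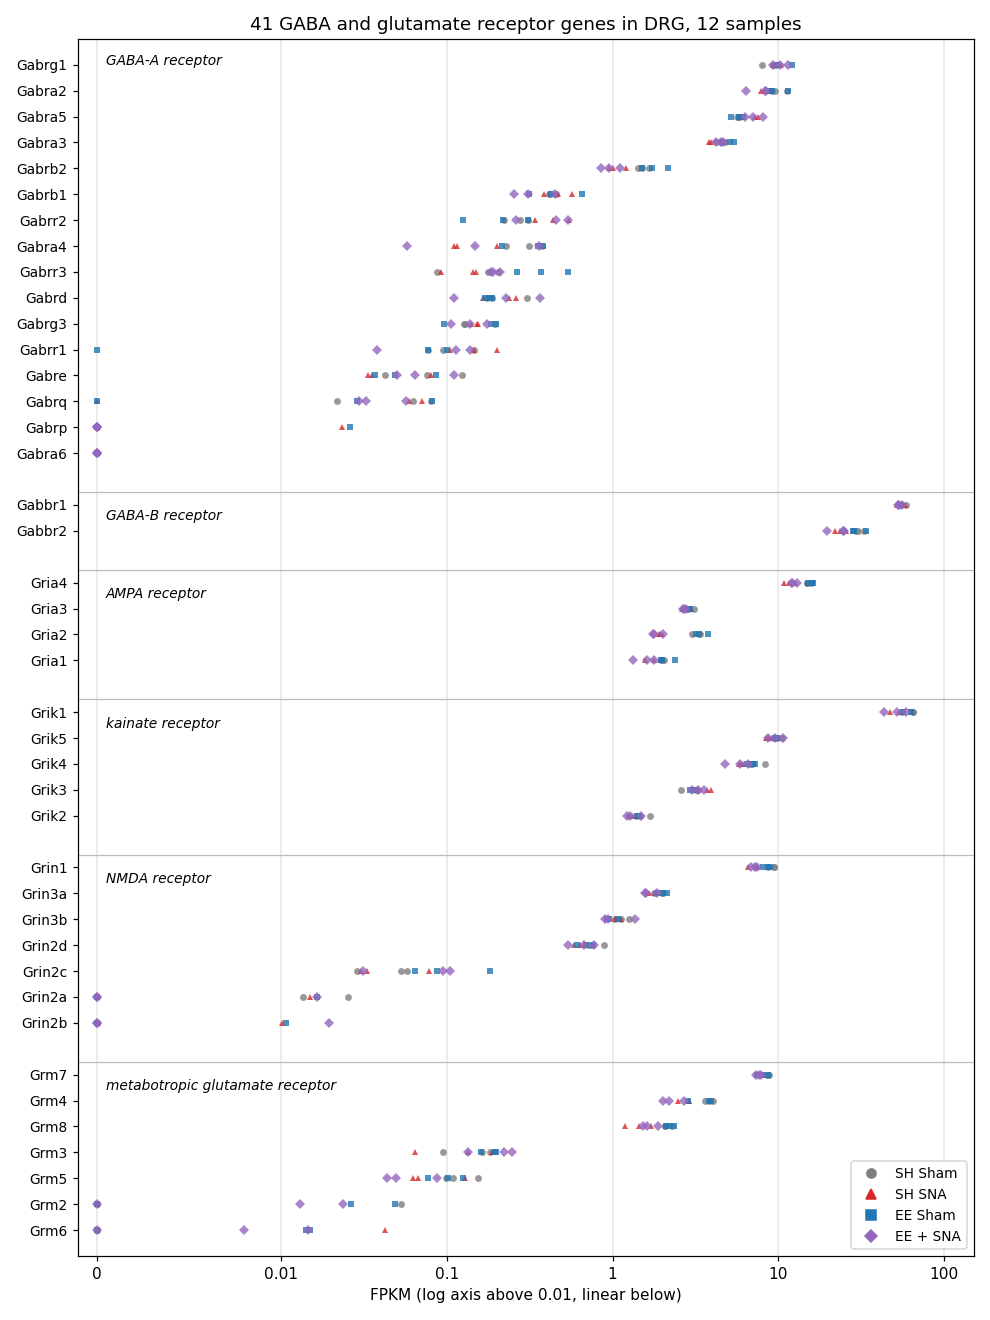
FPKM of 41 of the 45 receptor genes in the 12 samples, 1 row per gene ordered by mean level within each family, on an axis that is logarithmic above 0.01 FPKM and linear below. Each point is 1 sample, with colour and shape for the group. Grik1 and Gabbr1 lie furthest right, with means of 56.2 and 54.7 FPKM, and Gabra6 lies at 0.

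The genes with the highest levels follow, in every sample. Grik1, the GluK1 subunit found in small sensory neurons, had the highest mean of all, 56.2 FPKM, with 64.9, 55.4 and 64.4 FPKM in SH Sham, 47.1, 53.0 and 54.8 in SH SNA, 62.9, 56.2 and 62.6 in EE Sham and 52.1, 58.6 and 43.1 in EE + SNA. The SH SNA samples lay below all SH Sham samples, and in EE the groups overlapped. On counts scaled by library, 15.1% of all tested genes were lower after SNA without overlap in SH and 12.3% in EE. Over both housings together the share was 5.6%. Higher without overlap were 14.3%, 13.4% and 5.47%, and separate groups named below stand beside these shares. Gabbr1, the GABA-B subunit that binds GABA, had 53.1, 53.7 and 59.0 FPKM in SH Sham, 51.9, 56.0 and 57.9 in SH SNA, 55.1, 53.3 and 55.0 in EE Sham and 53.7, 55.8 and 52.7 in EE + SNA, and all groups overlapped. Grm7, a group III metabotropic receptor of presynaptic terminals, had 8.60, 8.47 and 8.76 FPKM in SH Sham, 7.39, 8.01 and 8.20 in SH SNA, 8.65, 7.39 and 7.92 in EE Sham and 7.32, 7.65 and 7.84 in EE + SNA, with an overlap in EE. The leading AMPA and NMDA genes, Gria4 (13.7 FPKM on average) and Grin1 (7.99), are described with the genes that fell. The order of Grik1 and Gabbr1 depended on the gene length. The authors' FPKM imply a length for Grik1 of 0.469 times its GENCODE exon length, and on the latter Gabbr1 led with 55.0 on a scale of reads per gene length and library size, followed by Grik1 with 26.4, and Gabra2 moved from rank 10 to rank 17. Such a choice of length rescales a gene by the same factor in every sample and leaves its fold change as it was. Grm5 has a second line in the FPKM table, 22.5 times higher than the line used here, and its level is therefore uncertain.

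The receptor genes that passed the test after SNA were lower, in both housings. In SH SNA against SH Sham, edgeR's quasi-likelihood test placed 10 of the 31 tested receptor genes lower and 0 higher at a Benjamini-Hochberg adjusted P-value of 0.05. Of the 16238 tested genes of all kinds, 5.17% were called lower and 6.06% higher. The 10 genes included the GABA-A gene Gabrb2, the GABA-B gene Gabbr2, the AMPA genes Gria2 and Gria4, the kainate gene Grik4, the NMDA gene Grin1 and the metabotropic genes Grm4 and Grm8. The fall was between 17.9% and 39.5%. At an unadjusted P-value of 0.05, 14 genes were lower and 2 (Gabra5 and Grik3) higher, against 11.8% and 13.4% of all genes. The 14 include Gabra4, which passed the count filter mainly through the Sham samples and is no support for this count. The median log2 fold change of the 31 tested receptor genes was −0.18, and that of all tested genes 0.00. DESeq2 called 11 receptor genes lower and 0 higher. The count was 9 without SH SNA replicate 2, the sample rich in muscle genes, where Gabrb2 (adjusted P = 0.0578) and Grik4 (0.0750) were no longer called, and the part of muscle RNA was not tested. It was 6 without SH Sham replicate 3, 7 without SH Sham replicate 1 or SH SNA replicate 1, and 11 without SH Sham replicate 2.

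The comparison of EE + SNA against EE Sham shares no sample with the one in SH and takes its controls from the earlier dataset. In it, 5 of the 31 tested receptor genes passed the adjusted threshold as lower (among them Gabrb2, Gria2, Gria4 and Grm4) and 0 as higher. Of all tested genes, 2.33% were lower and 2.51% higher. At the unadjusted threshold 15 were lower and 1, Gabra5, higher, against 10.4% and 10.3% of all genes. All 10 genes called lower in SH were lower at the unadjusted threshold in EE. Of the 839 genes of all kinds that were called lower in SH, 698 (83.2%) were. With only 10 receptor genes, their count is a description beside that share. The 5 genes lower in both housings after adjustment stand beside 2% of all tested genes. The adjusted count in EE was 3 without replicate 1 of either group or without EE + SNA replicate 3, which is the sample rich in neutrophil genes. Over all genes the count went from 785 to 481 without EE Sham replicate 1. It went to 376 without EE + SNA replicate 1 and to 497 without EE + SNA replicate 3.

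**Figure D2:**
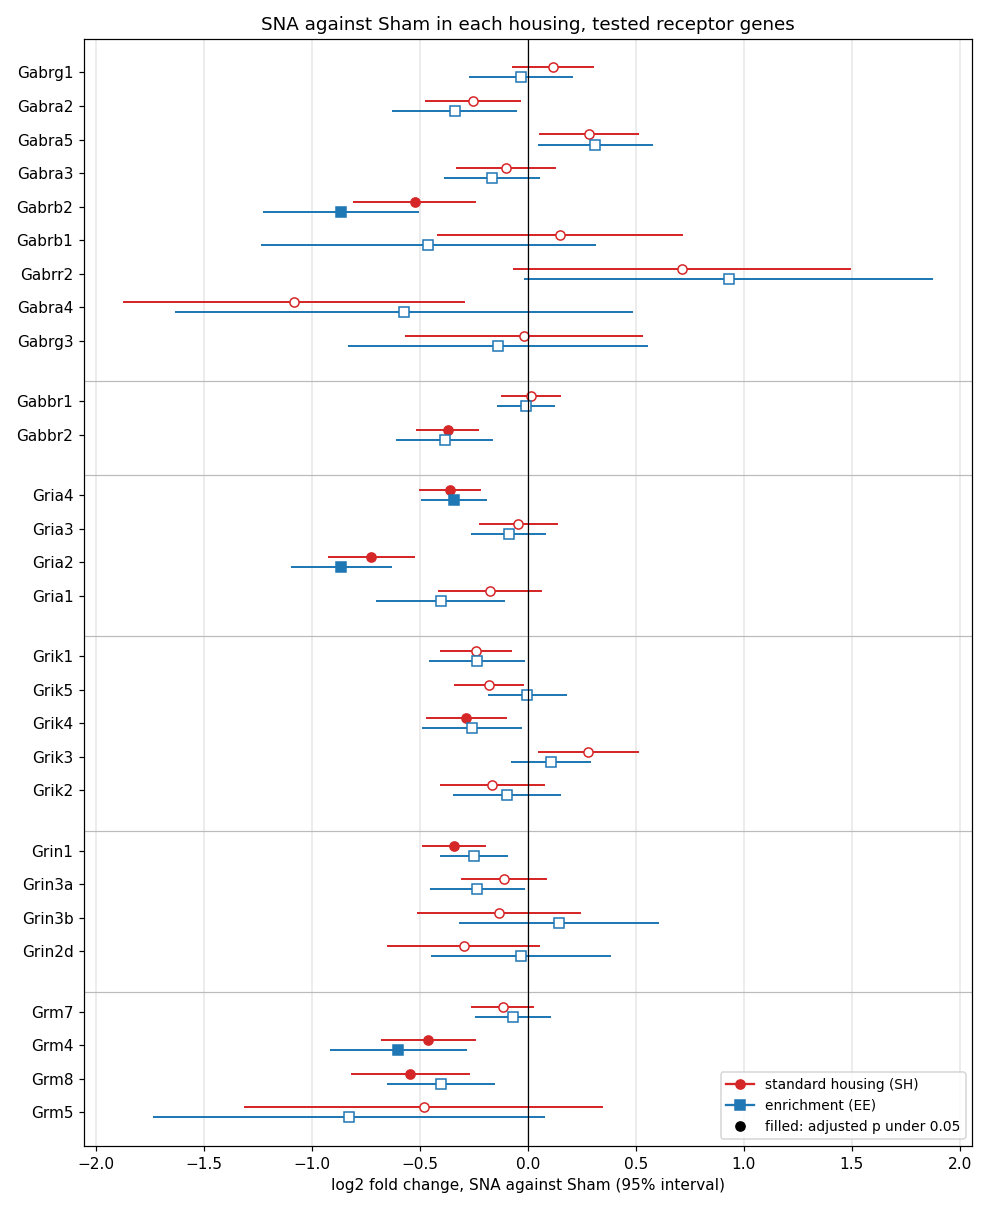
Log2 fold change of SNA against Sham for 28 of the 31 tested receptor genes, in standard housing (red circles) and in enrichment (blue squares), with 95% intervals from edgeR. Filled symbols passed the adjusted threshold (8 of the genes drawn in SH and 4 in EE), and all filled symbols lie left of 0.

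Among the AMPA genes, Gria2 fell most. It had 3.30, 3.03 and 3.38 FPKM in SH Sham, 1.92, 1.98 and 1.92 in SH SNA, 3.74, 3.17 and 3.30 in EE Sham, and 1.76, 2.01 and 1.79 in EE + SNA. All 6 SNA samples were below all 6 Sham samples, as for 5.6% of all tested genes. The log2 fold change of Gria2 was −0.73 in SH (standard error 0.09, adjusted P = 0.000278) and −0.87 in EE (standard error 0.10, adjusted P = 0.000822), which are falls of 39.5% and 45.1%. Gria4, the AMPA subunit with the highest level in DRG, had 15.8, 14.9 and 14.8 FPKM in SH Sham, 12.6, 11.6 and 10.9 in SH SNA, 16.1, 15.9 and 15.1 in EE Sham and 13.0, 12 and 12 in EE + SNA, again with no overlap between SNA and Sham. Gria4 had a log2 fold change of −0.36 in SH (adjusted P = 0.00301) and −0.34 in EE (adjusted P = 0.0132). Gria1 passed the adjusted threshold only when surgery was pooled over both housings in a fit of all 12 samples (−0.29, adjusted P = 0.0272), and this call was lost without SH SNA replicate 1 (adjusted P = 0.0630), EE Sham replicate 1 (0.0634) or EE + SNA replicate 3 (0.0559). Gria3 had a log2 fold change of −0.04 in SH (95% interval −0.22 to 0.13) and −0.09 in EE (−0.26 to 0.08). The AMPA genes summed to 22.8 to 25.1 FPKM in Sham and 17.3 to 19 FPKM in SNA. The share of Gria2 in that sum was 13.2% to 14.9% in the 6 Sham samples and 9.22% to 11.1% in the 6 SNA samples, and that of Gria3 11.7% to 12.8% and 14.2% to 16.1%. The shares were not tested, and with GENCODE exon lengths Gria2 averaged 6.07% of the AMPA sum, because the length implied for it in the FPKM is 0.450 times its exon length.

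Of the GABA-A genes, Gabrb2, a beta subunit, had 1.51, 1.42 and 1.65 FPKM in SH Sham, 0.951, 1.0 and 1.20 in SH SNA, 2.15, 1.51 and 1.73 in EE Sham and 0.950, 1.11 and 0.849 in EE + SNA, and no SNA sample reached a Sham sample. Gabrb2 changed by a log2 fold of −0.53 in SH (standard error 0.13, adjusted P = 0.0196) and −0.87 in EE (standard error 0.16, adjusted P = 0.0103). In SH the adjusted P of Gabrb2 was 0.0520 without SH Sham replicate 1, 0.0838 without SH SNA replicate 1, 0.0578 without SH SNA replicate 2 and 0.0791 without SH Sham replicate 3.

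Gabra5 went the other way. It had 5.81, 5.60 and 5.76 FPKM in SH Sham, 7.55, 7.19 and 5.97 in SH SNA, 6.08, 5.18 and 5.81 in EE Sham and 8.06, 6.28 and 6.98 in EE + SNA. In each housing every SNA sample was above every Sham sample, as for 14.3% of all tested genes in SH and 13.4% in EE. Gabra5 had a log2 fold change of 0.28 in SH (adjusted P = 0.108) and 0.31 in EE (adjusted P = 0.167), and with surgery pooled over both housings it rose by 23.2% (log2 fold change 0.30, standard error 0.08, adjusted P = 0.0116). In that pooled fit 2 of the 31 tested receptor genes were higher and 14 lower (the 10 genes of SH and, among others, Gabra2, Gria1 and Grik1), against 11.4% and 11% of all tested genes. The other higher gene was Gabrr2, a rho subunit of GABA-A receptors first known from the retina. It had 0.125 to 0.309 FPKM in Sham and 0.263 to 0.543 in SNA (0.82, adjusted P = 0.0342), passed the count filter through the SNA groups only, and was no longer called by DESeq2, without the filter or without replicate 1 of any group, EE Sham replicate 2, EE + SNA replicate 2 or SH Sham replicate 3 (adjusted P-values from 0.0527 to 0.0822). Gabra2 (−0.29, adjusted P = 0.0205) was lower in the pooled fit, and without SH Sham replicate 1 its adjusted P was 0.0529. Gabrg1, a gamma subunit, had a log2 fold change after SNA of 0.12 in SH (95% interval −0.07 to 0.30) and −0.03 in EE (−0.27 to 0.20). Gabra3, Gabrb1 and Gabrg3 passed neither threshold in either housing or in the pooled fit, and Gabra4 had a log2 fold change of −1.08 in SH at 0.0576 to 0.383 FPKM over all samples (unadjusted P = 0.0109 in the fit across all genes, adjusted P = 0.0764), after passing the filter in 3 of 3 Sham samples and 1 of 3 SNA samples of each housing. Among the alpha genes, Gabra5 held 17.4% to 19.7% in Sham and 21.3% to 28.5% in SNA. No SNA sample overlapped a Sham sample in this share, which rests on the authors' gene lengths. The length implied for Gabra2 is 0.315 times its exon length, so the share of Gabra5 would differ with GENCODE lengths.

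Many GABA-A genes stand in clusters in the mouse genome. Gabrg1, Gabra2, Gabra4 and Gabrb1 lie within 1398 kb on chromosome 5 (70751047 to 72149037 on GRCm38), and of these Gabra2 alone passed the adjusted threshold in the pooled fit.

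Of the GABA-B pair, Gabbr2, the subunit that couples to the G protein, had 30.4, 29.5 and 32.8 FPKM in SH Sham, 21.9, 23.6 and 25.4 in SH SNA, 33.7, 28.1 and 28.5 in EE Sham and 24.4, 24.9 and 19.7 in EE + SNA. All SNA samples were below all Sham samples. Gabbr2 had a log2 fold change of −0.37 in SH (standard error 0.06, adjusted P = 0.00264) and −0.39 in EE (standard error 0.10, adjusted P = 0.0524). Gabbr1 had 0.01 in SH (95% interval −0.12 to 0.15) and −0.01 in EE (−0.14 to 0.12). Gabbr2 made up 34.1% to 37.9% of the summed FPKM of the pair in Sham and 27.2% to 31.2% in SNA.

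Of the kainate genes, Grik4, a high-affinity subunit that needs GluK1 to GluK3 partners to form a channel, had 6.95, 6.71 and 8.25 FPKM in SH Sham, 5.80, 5.91 and 6.09 in SH SNA, 7.04, 6.46 and 7.26 in EE Sham and 5.88, 6.56 and 4.78 in EE + SNA. It was below all controls in SH, and in EE replicate 2 of EE + SNA lay above the lowest EE Sham sample. Its log2 fold change was −0.28 in SH (adjusted P = 0.0470) and −0.26 in EE (adjusted P = 0.188). The call in SH was lost without any 1 of the samples other than SH Sham replicate 2, with adjusted P-values from 0.0681 to 0.167. Grik1 had −0.24 in both housings and passed the adjusted threshold only in the pooled fit (adjusted P = 0.0167). Grik3, the GluK3 subunit, had 0.28 in SH (unadjusted P = 0.0206 in edgeR's fit, adjusted P = 0.116, and unadjusted 0.111 without SH Sham replicate 1 and 0.0959 without SH SNA replicate 3) and 0.11 in EE (95% interval −0.07 to 0.29), and its share of the kainate sum was 3.02% to 4.18% in Sham and 4.38% to 5.26% in SNA. With GENCODE exon lengths Grik3 averaged 7.39% of the kainate sum. Grik2 (−0.17 in SH and −0.10 in EE) and Grik5 (−0.18 and 0.00) did not pass the adjusted threshold in either housing or in the pooled fit.

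Grin1 had 8.64, 9.37 and 9.40 FPKM in SH Sham, 6.51, 7.46 and 7.41 in SH SNA, 8.93, 8.65 and 8.02 in EE Sham and 7.23, 7.40 and 6.86 in EE + SNA, and the SNA samples lay below every Sham sample. Grin1 had a log2 fold change of −0.34 in SH (standard error 0.07, adjusted P = 0.00509) and −0.25 in EE (standard error 0.07, adjusted P = 0.0629). Of its 9700 exon bases 13.5% are shared with the antisense gene Grin1os. The other NMDA genes with enough reads, Grin2d, Grin3a and Grin3b, did not pass the adjusted threshold in either housing or in the pooled fit. Grin3b shares 32.1% of its exon bases with Tmem259 on the other strand, and its counts are uncertain.

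The metabotropic genes Grm4 and Grm8 belong, with Grm7, to the group III receptors that inhibit adenylyl cyclase. Grm4 had 3.79, 3.60 and 4.05 FPKM in SH Sham, 2.46, 2.88 and 2.87 in SH SNA, 3.92, 3.81 and 2.87 in EE Sham and 2.2, 2.69 and 2.01 in EE + SNA, with no overlap within a housing. In log2 terms Grm4 changed by −0.46 in SH (standard error 0.10, adjusted P = 0.00949) and −0.60 in EE (standard error 0.14, adjusted P = 0.0340). The call in EE was lost without EE Sham replicate 1 or 2 or without EE + SNA replicate 1 or 3, with adjusted P-values from 0.0665 to 0.113. Grm8 had 2.07, 2.08 and 2.27 FPKM in SH Sham, 1.45, 1.19 and 1.72 in SH SNA, 2.34, 2.10 and 2.18 in EE Sham and 1.89, 1.62 and 1.52 in EE + SNA, with every SNA sample below every Sham sample. Grm8 had a log2 fold change of −0.54 in SH (standard error 0.12, adjusted P = 0.0136, and 0.0540 without SH Sham replicate 3) and −0.40 in EE (adjusted P = 0.0645). Grm7 had −0.12 in SH (95% interval −0.26 to 0.03) and −0.07 in EE (−0.24 to 0.10), and its share of the metabotropic sum was 54.1% to 59.4% in Sham and 62.2% to 67.4% in SNA. Grm5, of the group I receptors, passed neither threshold within a housing.

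**Figure D3:**
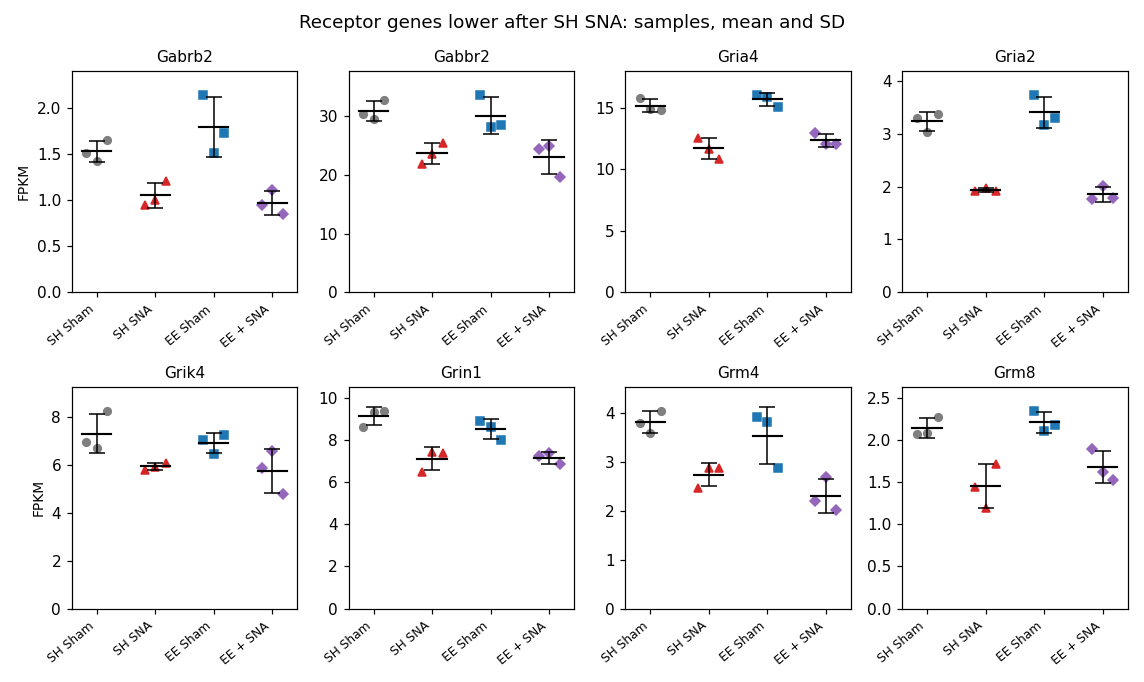
FPKM of 8 of the 10 receptor genes called lower in SH SNA against SH Sham, in each sample of the 4 groups, with the group mean as a long line and the SD as error bars (n = 3 per group). For Gria2, the 6 SNA samples lie between 1.76 and 2.01 FPKM and the 6 Sham samples between 3.03 and 3.74.

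**Figure D4:**
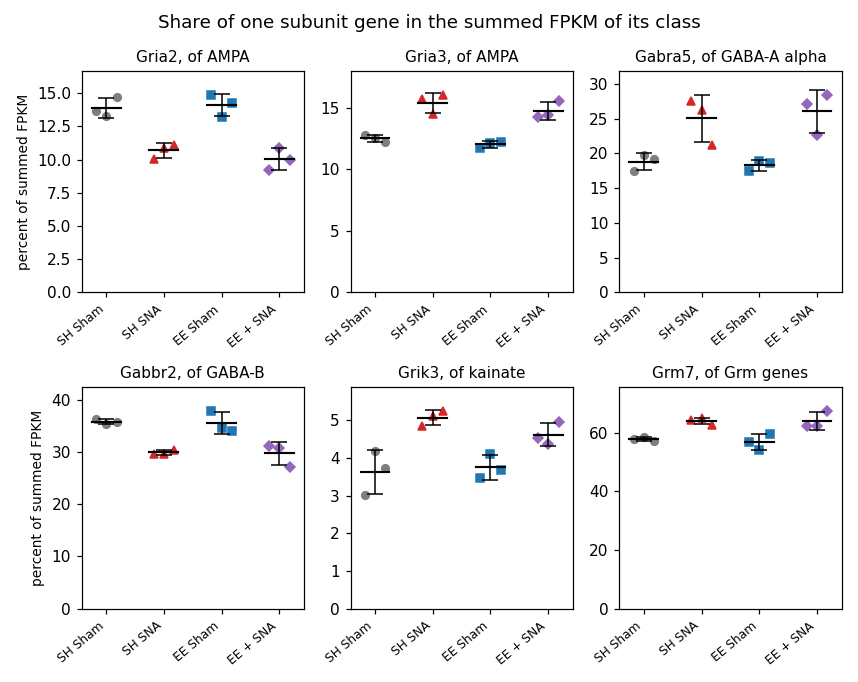
Share, in percent, of 1 subunit gene in the summed FPKM of its class, per sample and group, with mean and SD (n = 3 per group). In each of the 6 panels the SNA samples and the Sham samples occupy separate ranges, lower after SNA for Gria2 and Gabbr2 and higher for Gria3, Gabra5, Grik3 and Grm7, which were chosen for this difference.

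Whole ganglia were sequenced, and fewer cells of a type and less RNA per cell cannot be told apart. Of the 15 sensory neuron genes, 4 were lower in SH, 3 in EE and 7 in the pooled fit after adjustment, beside 5.17%, 2.33% and 11% of all tested genes, with medians of −0.18, −0.17 and −0.17 on the log2 scale. Tubb3, the neuronal tubulin, had 0.03 in SH and 0.06 in EE, whereas Isl1, a transcription factor of sensory neurons, fell by 0.42 and 0.40. In the pooled fit 6 of 9 macrophage genes, 4 of 7 Schwann cell genes and 2 of 5 satellite glia genes were higher, where 11.4% of all tested genes were. At the unadjusted threshold 4 of 4 tested neutrophil and 4 of 5 muscle genes were higher, where 18.1% of all tested genes were. The sums of both lists overlapped between Sham and SNA. For muscle they were 1.79 to 83.3 FPKM in Sham and 20.4 to 493 in SNA, the highest in SH SNA replicate 2. For neutrophils they were 118 to 373 and 198 to 1199, the highest in EE + SNA replicate 3. The summed macrophage level was 29.6 to 40.1 FPKM in Sham and 42.0 to 56.8 in SNA. The summed Schwann cell level was 2141 to 3091 FPKM in Sham and 2597 to 4131 in SNA, and that of satellite glia 782 to 1041 and 844 to 1021. The part of these cell types in the receptor genes' differences was not tested.

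Housing was compared next. In EE Sham against SH Sham, 1 of the 31 tested receptor genes, Gabrg1, was higher at the unadjusted threshold, where 2.97% of all tested genes were called. After adjustment 0 receptor genes were called by edgeR, DESeq2 or limma. Of all tested genes, edgeR called 0.00616%, DESeq2 called 1 gene and limma called 0, so these counts say little about the receptor genes. Gabrg1 had 9.68, 9.33 and 7.99 FPKM in SH Sham and 12.1, 9.78 and 9.63 in EE Sham, with an overlap. It had 10.4, 9.36 and 9.25 FPKM in SH SNA and 10.2, 9.22 and 11.5 in EE + SNA. Its log2 fold change for EE was 0.23 among Sham samples (standard error 0.10, unadjusted P = 0.0397 in edgeR's fit) and 0.09 among SNA samples (95% interval −0.11 to 0.29). Pooled over both surgeries it was 0.16 (unadjusted P = 0.0463 in edgeR's fit), again the only 1 of the 31 tested receptor genes called, where 4.69% of all genes were. The call among Sham samples was lost without EE Sham replicate 1 (0.11 on the log2 scale, unadjusted P = 0.249 in edgeR's fit) or SH Sham replicate 3 (0.15, unadjusted P = 0.185). The pooled call was lost without any 1 of 7 samples, namely EE Sham replicate 1, EE + SNA replicate 1 or 3 and replicates 2 and 3 of both SH groups, with unadjusted P-values from 0.0576 to 0.161.

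In EE + SNA against SH SNA, edgeR called 0 of the 31 tested receptor genes by unadjusted P (4.1% of all genes) or after adjustment (0% of all genes). The same receptor counts came from DESeq2 and from limma on log2 of the FPKM. The unadjusted count was 2 without SH SNA replicate 1 and 1 without EE + SNA replicate 2, SH SNA replicate 3 or EE + SNA replicate 3. For the 10 genes that fell in SH, the log2 fold change of EE + SNA against SH SNA lay between −0.23 (Grm4, 95% interval −0.50 to 0.04) and 0.21 (Grm8, −0.10 to 0.52). For Gria2 it was −0.05 (−0.26 to 0.16). The interaction of housing and surgery, a test of whether the effect of SNA depends on housing, placed 0 of the 31 tested receptor genes past either threshold in edgeR, DESeq2 or limma. By edgeR, 2.61% of all genes passed the unadjusted one and 0% the adjusted one. The unadjusted receptor count was 1 without EE Sham replicate 2 or EE + SNA replicate 3. The interaction was largest among these 10 genes for Gabrb2 (−0.33, 95% interval −0.79 to 0.12). In EE + SNA against SH Sham, the comparison that changes both housing and surgery, 7 genes were lower after adjustment and 0 higher, where 5.63% and 6.87% of all genes were. These included Gabbr2 (−0.41), Gabrb2 (−0.62), Gria2 (−0.78), Gria4 (−0.28), Grin1 (−0.33) and Grm4 (−0.69). This comparison shares its control samples with SH SNA against SH Sham. Its count was 11 without EE + SNA replicate 2, where all genes went from 2031 to 2021.

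Partner genes of the receptors were listed in 6 groups, of which 71 of 73 genes were tested. After SH SNA 5 were higher and 11 lower after adjustment, beside 6.06% and 5.17% of all tested genes. In EE + SNA against EE Sham 1 was higher and 3 lower, beside 2.51% and 2.33%. With lists this short, the counts below are descriptions beside those same shares. The 18 glutamate receptor auxiliary and delta genes had 3 higher and 5 lower in SH and 0 and 2 in EE. The 14 genes of GABA receptor anchoring had 1 higher and 2 lower in SH and 0 and 1 in EE. The 14 genes of glutamate vesicles, uptake and metabolism had 1 higher and 2 lower in SH and 1 and 0 in EE, and the 14 postsynaptic scaffolds 0 higher and 2 lower in SH and 0 called in EE. Of the 4 chloride cotransporter genes and the 7 tested genes of GABA synthesis, vesicles, uptake and breakdown, 0 were called after adjustment in either housing by edgeR, DESeq2 or limma, and 0 and 3 by edgeR's unadjusted P in SH and 0 and 1 in EE, where 25.2% and 20.6% of all tested genes were.

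Past the adjusted threshold in both housings were 4 partner genes. Cacng5, a transmembrane regulatory protein of AMPA receptors, had 5.83, 5.82 and 6.14 FPKM in SH Sham, 4.05, 3.43 and 3.45 in SH SNA, 5.83, 5.48 and 5.29 in EE Sham and 3.75, 3.98 and 3.43 in EE + SNA, and its log2 fold change was −0.69 in SH and −0.56 in EE (adjusted P = 0.000633 and 0.00642). Frrs1l, which helps to assemble AMPA receptors, had 8.56 to 9.68 FPKM in SH Sham, 4.95 to 6.58 in SH SNA, 8.44 to 10.6 in EE Sham and 5.58 to 6.63 in EE + SNA, with −0.60 and −0.55 on the log2 scale. Lhfpl4, which links GABA-A receptors to the synaptic scaffold, had 82.3 to 94.7 FPKM in SH Sham, 58.3 to 68.8 in SH SNA, 84.0 to 88.1 in EE Sham and 61.9 to 71.8 in EE + SNA, with −0.43 and −0.38. The SNA samples of these 3 genes lay below every Sham sample, as for 5.6% of all tested genes. Glul, the glutamine synthetase that satellite glia use to clear glutamate, was higher, with 127 to 148 FPKM in SH Sham, 177 to 201 in SH SNA, 131 to 159 in EE Sham and 172 to 204 in EE + SNA, and log2 fold changes of 0.47 and 0.36.

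**Figure D5:**
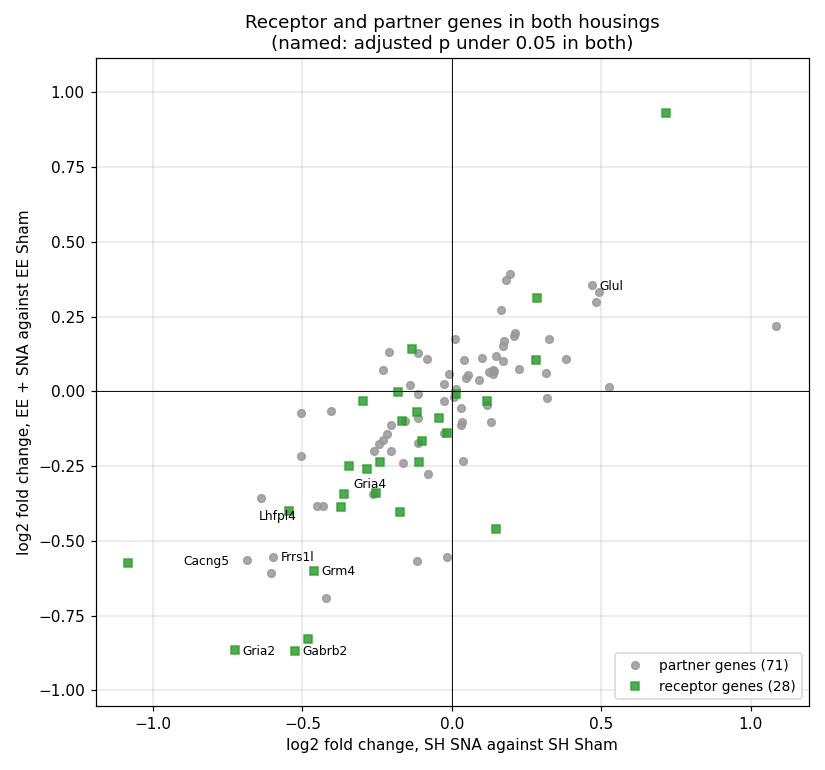
Log2 fold change after SNA in standard housing (horizontal) and in enrichment (vertical) for 28 of the 31 tested receptor genes (green squares) and the 71 tested partner genes (grey circles), from comparisons with no sample in common. Named genes passed the adjusted threshold in both, and of these Glul alone lies above 0.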

How the data were processed

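RNAseq counts of 12 samples in 4 groups of 3 were analysed. Per the labels and the study's methods, the authors sequenced TruSeq mRNA libraries as paired ends on a HiSeq, aligned them to mm10 with TopHat2 2.0.12 and Bowtie2 2.2.3, and counted reads per gene with HTSeq (version 0.6.0 in the labels). The deposited count table holds whole reads per gene name, not normalized, and its 5 lines of unassigned reads were left out (46.7% to 47.6% of reads outside genes, 0.314% to 0.370% ambiguous, 8.49% to 9.28% not unique). The deposited FPKM table holds FPKM, which the authors derived from these reads, and was used for levels and shares, on the scale of the authors' gene lengths.

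Counts were scaled by TMM and tested in edgeR 4.0.16 (R 4.3.3) with glmQLFit and the two-sided quasi-likelihood F test over the 16238 genes that passed filterByExpr (10 counts, total 15). Comparisons of 2 groups used their own 6 samples, and the interaction and the pooled effects all 12. Standard errors were taken as the log2 fold change over the root of F, and intervals are 95% intervals. P-values were adjusted by the Benjamini-Hochberg method over all tested genes. The study called genes at an unadjusted P of 0.05. The test was tried on simulated counts. Replicate numbers were not taken to pair the samples, since in each comparison at least 1 of 3 same-numbered pairs correlated by less than 0.1. For EE Sham and SH Sham the values were 0.337, 0.153 and 0.0793, where other pairs reached 0.194. For EE + SNA and SH SNA they were 0.0701, 0.103 and 0.126, all above the highest other pair (0.0399). A pairing between the housings may therefore exist and was not tested. Values were given in every sample for members past the adjusted threshold in SH SNA against SH Sham or EE + SNA against EE Sham and for the highest gene of each family, and other genes by fold change. Of the 45 receptor genes, 4 are counted but not reported singly here. The receptor genes and the partner and marker lists were chosen with earlier results of these data known. Genes were placed with GENCODE M21 on GRCm38, and promoters are those of RefSeq. DESeq2 1.42.0, limma 3.58.1 on log2 of the FPKM plus 1 or 0.1, the likelihood ratio test, library size scaling, no filter, a filter of 10 counts in every sample, all 12 samples in one fit, a replicate block and each sample left out were the alternatives. Figures were drawn with Matplotlib 3.10.9.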

Additional observations from a re-analysis of the deposited data

Results flagged for a closer look

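The effect of SNA differed between the housings, at an unadjusted P-value of 0.05 in edgeR's test of the interaction, for 4 of the 71 tested partner genes and 0 receptor genes. None of the 4 passed the adjustment over all genes, and 2.61% of all tested genes were called at this threshold. The interaction, which is the log2 fold change in EE minus that in SH, was −0.26 for Adarb1 (95% interval −0.47 to −0.05), 0.44 for Cnih2 (0.13 to 0.75), −0.53 for Cnih3 (−1.0 to −0.06) and −0.50 for Shisa6 (−0.96 to −0.05). Cnih2 and Cnih3 encode cornichon proteins and Shisa6 another auxiliary protein, all of AMPA receptors. In SH, Cnih2 fell from 9.75 to 10.5 FPKM in Sham to 6.77 to 7.36 after SNA (log2 fold change −0.50, adjusted P = 0.00759), and in EE the groups overlapped, with 7.79 to 9.83 FPKM in Sham and 7.99 to 8.82 after SNA. Adarb1 had 5.39 to 6.38 FPKM in SH Sham, 7.28 to 8.16 in SH SNA, 6.20 to 6.79 in EE Sham and 6.77 to 7.23 in EE + SNA. The number of partner genes called was 2 with DESeq2, and 2 without SH SNA replicate 1, SH Sham replicate 3 or SH SNA replicate 3. In EE the SNA effect is taken against EE Sham, which comes from an earlier dataset, and a difference between datasets and an effect of SNA in EE cannot be told apart.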

How the results depend on the processing

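The fold change of a receptor gene called at either threshold kept its sign in each of the 1165 values computed over 71 pairs of gene and comparison and their alternatives. Of the 38 pairs called after adjustment, 28 passed under every alternative. The number of receptor genes called after SNA in SH (10) was 6 with limma on log2(FPKM + 0.1), where the number over all genes went from 1823 to 1474. It was 6 to 11 with 1 sample left out, with 1207 to 1683 of all genes. In EE (5) it was 8 with the likelihood ratio test, 11 with no filter and 3 with limma on log2(FPKM + 1) or log2(FPKM + 0.1), where all genes went from 785 to 1303, 1694 (of 26122 tested), 481 and 470. It was 3 to 6 with 1 sample left out, with 361 to 1082 of all genes. EE + SNA against SH Sham (7) gave 11 with the likelihood ratio test and 13 with no filter, where all genes went from 2031 to 2438 and 2849. It gave 7 to 11 with 1 sample left out, with 1168 to 2021 of all genes. Surgery pooled over both housings (16) gave 14 to 17 with 1 sample left out, with 2962 to 3770 of all genes against 3638. At the unadjusted threshold, EE Sham against SH Sham (1) gave 3 with no filter and 0 with limma on either log2 FPKM scale, where all genes went from 483 to 887, 526 and 527, and 0 to 3 with 1 sample left out. EE + SNA against SH SNA (0) gave 1 with all 12 samples in one fit (all genes 673 against 666) and 0 to 2 with 1 sample left out, the interaction (0) gave 0 to 1, and housing pooled over both surgeries (1) gave 4 with no filter and 0 with limma on either scale (all genes 1299, 837 and 828 against 762) and 0 to 2 with 1 sample left out. The cause of these changes was not tested.

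With the replicate number as a block, 1 receptor gene was called in EE + SNA against SH SNA and 3 in housing pooled over both surgeries. At the unadjusted threshold all genes went from 666 to 857 and from 762 to 877. In EE Sham against SH Sham the receptor count stayed at 1, and all genes went from 483 to 847. The block moved the other receptor counts by less than 1.5 times, and 10 receptor genes were called in SH and 7 in EE after SNA. The numbers were not taken to pair the samples. Gabra4, Gabrr2 and Grm5, with 3 to 34 reads per sample, are limited by counting error.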

Other observations

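Beside the partner genes called in both housings, others passed the adjusted threshold of edgeR's quasi-likelihood test in SH or with surgery pooled over both housings, and they were picked for the text after their values were seen. Adarb1, which encodes the enzyme ADAR2 that edits glutamate receptor transcripts, had a log2 fold change of 0.38 in SH (standard error 0.07, adjusted P = 0.00414), 0.11 in EE (standard error 0.07, adjusted P = 0.397) and 0.25 in the pooled fit (adjusted P = 0.00447). Neto2, an auxiliary protein of kainate receptors, had 0.49 in SH (adjusted P = 0.000725), 0.33 in EE (adjusted P = 0.0742) and 0.41 in the pooled fit (adjusted P = 0.000102), and in each housing its SNA samples were above all Sham samples. The glutamate transporter gene Slc1a1 had −0.64 in SH (adjusted P = 0.0111) and −0.36 in EE (adjusted P = 0.194). The scaffold gene Shank1 had −0.61 in both housings (adjusted P = 0.0112 in SH and 0.0788 in EE), and Gphn, which encodes the GABA-A receptor anchor gephyrin, −0.25 and −0.18 (adjusted P = 0.0200 and 0.239). Slc17a7, a vesicular glutamate transporter gene, had −0.20 in both (adjusted P = 0.0299 and 0.0965). In each housing, the SNA samples of these last 4 genes lay below all Sham samples. Of all tested genes, 15.1% did so in SH and 12.3% in EE, and 14.3% and 13.4% lay above, as Neto2 did. No value here shows editing, transport or protein.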
